A study of Mus musculus with 6 samples.

Results

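The BCL2 family of survival and death genes was examined in coronary endothelial cells (ECs) with and without *Wt1*. The 10 members were taken by symbol and not by a rule on their measured values, though earlier results of these data were known. They were the survival genes *Bcl2*, *Bcl2l1*, *Bcl2l2* and *Mcl1*, the pore-forming effectors *Bax* and *Bak1*, and the BH3-only genes *Bcl2l11*, *Bbc3*, *Bid* and *Bad*. They are 10 of the 55416 genes in the count table, and all 10 were among the 16296 genes with enough counts to be tested. The libraries were RNA-Seq of mGFP+ cells sorted from E15.5 mouse heart ventricles. ControlΔEC embryos were Pdgfb-CreERT2/+; Wt1-+/+; R26-mTmG/+ (n = 3 libraries), and Wt1KOΔEC embryos were Pdgfb-CreERT2/+; Wt1-LoxP/LoxP; R26-mTmG/+ (n = 3 libraries). Both groups therefore carried the Cre driver and the mTmG reporter, and both had been exposed to tamoxifen, of which the dams received 75 mg/kg between E11.5 and E13.5. Cre expression depended on *Pdgfb*, a gene of angiogenic ECs, so the sort selected cells in which this driver had been active and not non-recombined ECs. Transcripts listed as markers of other cell types were also present, as given below.

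BCL2 family proteins decide whether the outer mitochondrial membrane is breached. BAX and BAK1 form the pores, the survival proteins hold them and their activators in check, and BH3-only proteins, which respond to loss of growth factors, to DNA damage or to death receptors, bind the survival proteins or activate the effectors directly. Once the membrane is open, cytochrome c leaves the mitochondrion and caspases are activated. In growing vessels this balance is known to be set in part by VEGF signalling, which maintains survival proteins in ECs, and BIM, the product of *Bcl2l11*, is known for its part in the pruning of vessels.

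WT1 is a zinc finger transcription factor, so the sequences next to the starts of the members are shown. No binding was measured in these data. RefSeq promoter windows (250 bases before to 50 bases after a start, from a table on GRCm38.p6) matched all 10 members in 16 windows, and each window printed here was found once, unchanged, on GRCm39. Both strands were searched for GCGGGGGCG, a GC-rich site shared by the EGR family and WT1, and for GCGTGGG, the core of the site of the WT1 form without the KTS insert. The first motif was in 2 of the 16 windows, against 2.91% of all 32851 windows in the table, and the second also in 2 of 16, against 5.04%. Neither was in the windows of *Bcl2* and *Bax*. These are shown because *Bcl2* was the member with the smallest p in the comparison and *Bax* the effector with the higher level. The parts upstream of the GENCODE genes lie at chr1:106642061-106642270 for *Bcl2* and at chr7:45116326-45116572 for *Bax*, both on the minus strand of GRCm39:

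Bcl2: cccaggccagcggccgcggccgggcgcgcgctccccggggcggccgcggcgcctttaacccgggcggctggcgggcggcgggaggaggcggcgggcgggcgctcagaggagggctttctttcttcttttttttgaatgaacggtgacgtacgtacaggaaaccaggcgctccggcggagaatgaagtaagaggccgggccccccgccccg

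Bax: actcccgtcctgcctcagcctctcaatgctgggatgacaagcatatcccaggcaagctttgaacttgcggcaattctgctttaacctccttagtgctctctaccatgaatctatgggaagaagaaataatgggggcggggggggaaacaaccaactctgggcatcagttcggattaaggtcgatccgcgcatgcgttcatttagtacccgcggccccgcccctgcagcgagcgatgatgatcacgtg

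The matches lay near *Bcl2l11*, *Bbc3* and *Bad*. They are shown as stretches of 30 bases on the strand of the gene, with the matched letters in capitals. The *Bcl2l11* match, at chr2:127967897-127967926, lies before the start of the gene. The first *Bbc3* stretch (chr7:16043306-16043335) holds the second motif on the other strand, and the next (chr7:16043453-16043482) holds both motifs side by side; these and the *Bad* stretch (chr19:6919101-6919130) fall in untranslated exons of longer GENCODE transcripts. A match describes letters and not occupancy.

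Bcl2l11: ggtgattgggcGCGGGGGCGggggctcaac

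Bbc3, first: gtctgggctgtcCCCACGCtgctcctcctg

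Bbc3, second: cgtcacGCGGGGGCGggGCGTGGGagccag

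Bad: ggactaccatttCCCACGCttagattccca

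The genotype labels were first checked with *Wt1*. Its level was 145, 109.6 and 149 CPM (counts scaled to TMM-normalized library sizes) in ControlΔEC replicates 1 to 3 and 14.0, 18.4 and 21.3 CPM in Wt1KOΔEC, and it fell by 2.91 on the log2 scale (SE 0.22; edgeR's quasi-likelihood test, Benjamini-Hochberg adjusted p = 0.00319). Libraries held 26037324 to 44779020 counts, so 3 counts, the floor used for a gene with no count, corresponded to 0.0608 to 0.119 CPM. The 10 endothelial markers summed to 5691 to 6867 CPM in ControlΔEC and 5763 to 6636 CPM in Wt1KOΔEC, and all 10 were detected (*Pecam1* -0.05 and *Kdr* -0.29 in log2 fold change; adjusted p = 0.939 and 0.425, edgeR's quasi-likelihood test). Mitochondrially encoded transcripts took 5.21 to 6.61% of counts in ControlΔEC and 1.68 to 4.57% in Wt1KOΔEC, and *Rn18s* took 13.2 to 15.3% and 21.1 to 26.5%. The libraries of the genotypes carry identifiers from separate series, and whether they were prepared together is not given in the sources used here, so any such difference and the genotype cannot be told apart. Replicates are labelled biological, but the number of embryos behind each is not given. In these bulk samples, fewer cells of a type and less RNA per cell cannot be told apart.

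Genes were called differentially expressed (DEGs) where edgeR's quasi-likelihood test gave an adjusted p under 0.05 with a log2 fold change beyond ±0.58. By this rule 0 of the 10 members were DEGs. The background was 12 of the genes tested (0.0736%), 8 higher (0.0491%) and 4 lower (0.0245%) in Wt1KOΔEC. At an unadjusted p under 0.05, 1 member, *Bcl2*, was lower, against 7.12% of all genes tested, and 0 were higher, against 5.96% (13.1% in either direction). DESeq2, the tool named in the study's methods, called 1 member, *Bcl2*, as lower, against 2.63% of the 15886 genes to which it gave an adjusted p, and 0 as higher, against 2.2% (4.83% in either direction). For 4 members, no library of either genotype lay within the range of the other: *Bax* and *Bad* were higher in every Wt1KOΔEC library, where 10.3% of all genes behaved so, and *Bcl2* and *Bcl2l2* were lower in every one, where 8.97% did (19.3% in either direction). The fitted log2 fold change was above 0 for 4 members and below 0 for 6, with a median of -0.09 beside -0.03 over all genes tested. By role, the median was -0.43 for the 4 survival genes, 0.36 for the 2 effectors and -0.30 for the 4 BH3-only genes. Each median rests on 4 genes or fewer and was not tested. *Bcl2l1* (0.11) went the other way from the survival median, and *Bad* (0.52) from the BH3-only median.

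**Figure D1:**
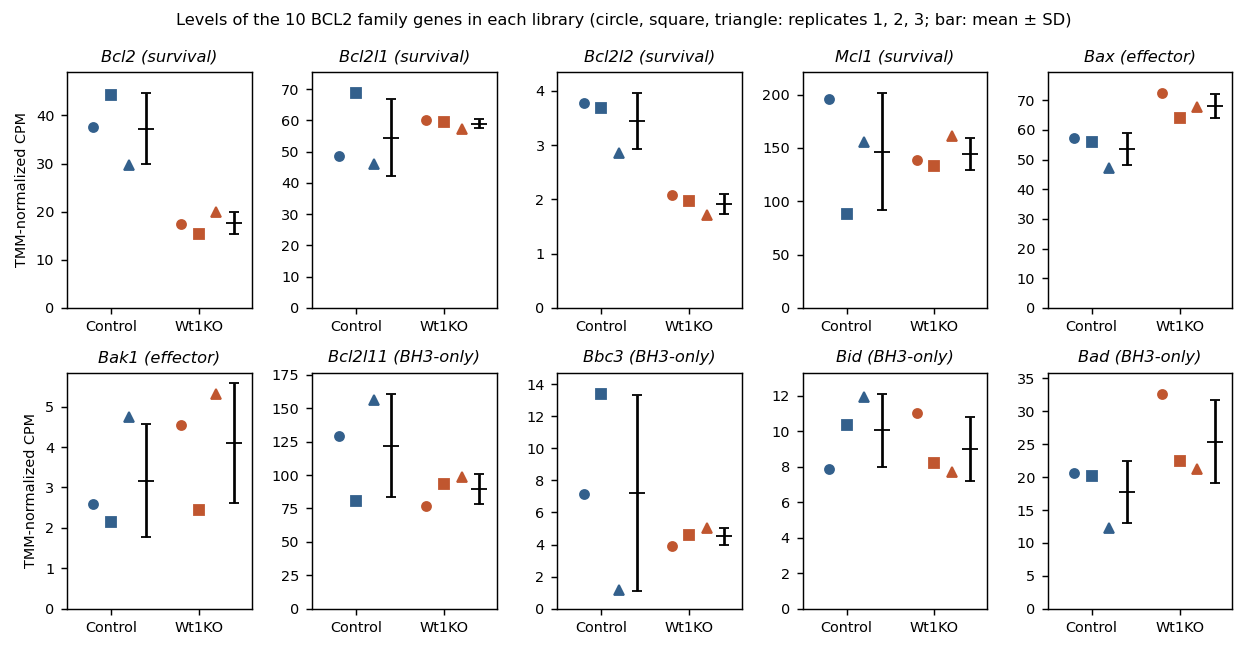
Level of each of the 10 genes in TMM-normalized CPM (vertical axes start at 0), with 1 point per library (circle, square and triangle for replicates 1, 2 and 3), ControlΔEC in blue and Wt1KOΔEC in orange, and bars for the mean ± SD of 3 libraries. For *Bcl2* and *Bcl2l2* all Wt1KOΔEC points sit below the ControlΔEC points, for *Bax* and *Bad* they sit above, and *Bbc3* spans 1.14 to 13.4 CPM within ControlΔEC.

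*Bcl2* (chromosome 1, 106465908 to 106642060, minus strand of GRCm39) encodes the founding survival protein of the family. It was measured at 37.7, 44.4 and 29.7 CPM in ControlΔEC replicates 1 to 3 and at 17.4, 15.4 and 20.0 CPM in Wt1KOΔEC. The highest Wt1KOΔEC library was thus well under the lowest ControlΔEC library, and the spread within each genotype (37.3 ± 7.35 and 17.6 ± 2.28 CPM, mean ± SD, n = 3) was smaller than the gap between the means. The fitted level in Wt1KOΔEC was 0.473 times that in ControlΔEC (95% confidence interval 0.328 to 0.680), a log2 fold change of -1.08 (SE 0.23), with an unadjusted p of 0.00117 and an adjusted p of 0.140 by edgeR's quasi-likelihood test. DESeq2 gave -1.09 and an adjusted p of 0.0011. Over 17 alternatives, among them limma-voom, DESeq2 and other scalings and filters of edgeR's test, the log2 fold change of *Bcl2* stayed between -1.23 and -0.93 and the adjusted p between 0.0011 and 0.464. Whether *Bcl2* is called therefore turned on the method, while the size of the difference moved little.

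*Bcl2l1* encodes BCL-XL. Its levels were 48.5, 68.7 and 46.1 CPM in ControlΔEC and 60.1, 59.4 and 57.4 CPM in Wt1KOΔEC. The 3 Wt1KOΔEC libraries lay within the range of the ControlΔEC libraries. This gave a log2 fold change of 0.11 (SE 0.19, 95% confidence interval -0.32 to 0.55; adjusted p = 0.885, edgeR's quasi-likelihood test), and scaling by library size only turned it to -0.045.

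*Mcl1* encodes a survival protein that is known for its short life. It stood at 196, 87.6 and 156 CPM in ControlΔEC and at 138, 133 and 161 CPM in Wt1KOΔEC. The ControlΔEC libraries differed more among themselves (2.24-fold from lowest to highest) than the genotypes did, and the Wt1KOΔEC values fell inside their range. Accordingly the log2 fold change was -0.02 (SE 0.27, 95% confidence interval -0.62 to 0.58; adjusted p = 0.987, edgeR's quasi-likelihood test), and its sign was positive under limma-voom (0.055), upper-quartile scaling (0.000211) and when ControlΔEC replicate 1 was left out (0.25).

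*Bcl2l2*, which encodes BCL-W, had few counts, with 169, 182 and 82 in ControlΔEC and 81, 70 and 43 in Wt1KOΔEC. These are 3.78, 3.69 and 2.84 CPM against 2.07, 1.97 and 1.70 CPM. Every Wt1KOΔEC library was below every ControlΔEC library. With counts this low the fold change was poorly fixed, at -0.84 on the log2 scale (SE 0.62, 95% confidence interval -2.24 to 0.55; adjusted p = 0.645, edgeR's quasi-likelihood test). Of its exonic length, 11.0% is shared on the same strand with the model *Gm20521*, to which 31, 50 and 42 counts were given in ControlΔEC and 66, 47 and 0 in Wt1KOΔEC, so the split of reads between them is uncertain.

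*Bax*, which encodes a pore-forming effector, was measured at 57.4, 56.0 and 47.3 CPM in ControlΔEC and at 72.3, 64.0 and 67.7 CPM in Wt1KOΔEC. All 3 Wt1KOΔEC libraries were above all 3 ControlΔEC libraries, with means of 68.0 ± 4.15 and 53.5 ± 5.44 CPM (SD, n = 3). The fitted level was 1.27 times that of ControlΔEC (95% confidence interval 0.987 to 1.64), with an unadjusted p of 0.0609 and an adjusted p of 0.409 (edgeR's quasi-likelihood test). The log2 fold change of 0.34 (SE 0.16) kept its sign under all 17 alternatives (0.19 to 0.40, adjusted p 0.256 to 0.759).

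*Bak1* encodes the effector that resides on mitochondria before any death signal. It gave 2.59, 2.15 and 4.75 CPM in ControlΔEC and 4.56, 2.44 and 5.30 CPM in Wt1KOΔEC. Replicates 1 and 3 of Wt1KOΔEC were near ControlΔEC replicate 3, and replicate 2 was near the other two ControlΔEC libraries, so the genotypes overlapped. With this spread the log2 fold change was 0.37 (SE 0.60, 95% confidence interval -0.99 to 1.74; adjusted p = 0.877, edgeR's quasi-likelihood test).

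*Bcl2l11*, which encodes BIM, had the highest level per kb of exonic length among the BH3-only genes in every library. In CPM it was present at 129, 80.4 and 156 CPM in ControlΔEC and at 76.9, 93.5 and 98.5 CPM in Wt1KOΔEC. ControlΔEC replicate 2 lay among the Wt1KOΔEC libraries, and the other ControlΔEC libraries were above them. The log2 fold change of -0.44 (SE 0.24, 95% confidence interval -0.98 to 0.10; adjusted p = 0.488, edgeR's quasi-likelihood test) became -0.67 without ControlΔEC replicate 2 and -0.22 without ControlΔEC replicate 3.

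*Bad*, whose product is held inactive by phosphorylation when growth factors are present, showed 20.6, 20.2 and 12.2 CPM in ControlΔEC against 32.6, 22.4 and 21.2 CPM in Wt1KOΔEC. The genotypes did not overlap, but only by a narrow margin between ControlΔEC replicate 1 and Wt1KOΔEC replicate 3. Fitted over all libraries, the log2 fold change was 0.52 (SE 0.29, 95% confidence interval -0.13 to 1.18; adjusted p = 0.506, edgeR's quasi-likelihood test). The libraries do not mark strand, and 20.4% of the exonic length of *Bad* overlaps *Gpr137* on the opposite strand, which was at 12.9, 18.4 and 7.74 CPM in ControlΔEC and 14.5, 15.6 and 17.0 CPM in Wt1KOΔEC, so part of the *Bad* reads may belong to *Gpr137*.

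*Bbc3* encodes PUMA, a p53 target that binds all survival proteins. Its values were 7.13, 13.4 and 1.14 CPM in ControlΔEC and 3.94, 4.58 and 5.03 CPM in Wt1KOΔEC. The ControlΔEC libraries differed 11.7-fold from lowest (33 counts) to highest (659 counts), while the Wt1KOΔEC libraries lay close together between them. Its log2 fold change was -0.68 (SE 0.73; adjusted p = 0.785, edgeR's quasi-likelihood test). It was decided by single libraries, being 0.12 without ControlΔEC replicate 2 and -1.18 without ControlΔEC replicate 3.

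*Bid*, which links death receptors to mitochondria once caspase-8 cleaves its product, gave 7.87, 10.4 and 11.9 CPM in ControlΔEC and 11.0, 8.23 and 7.72 CPM in Wt1KOΔEC. The ranges were nearly the same. Their fitted log2 fold change was -0.16 (SE 0.33, 95% confidence interval -0.91 to 0.59; adjusted p = 0.914, edgeR's quasi-likelihood test). The neighbouring family gene *Bcl2l13* overlaps 31.2% of the exonic length of *Bid* on the opposite strand and had 1176 to 3588 counts per library against 195 to 511 for *Bid*, so the *Bid* counts may hold reads of *Bcl2l13*.

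**Figure D2:**
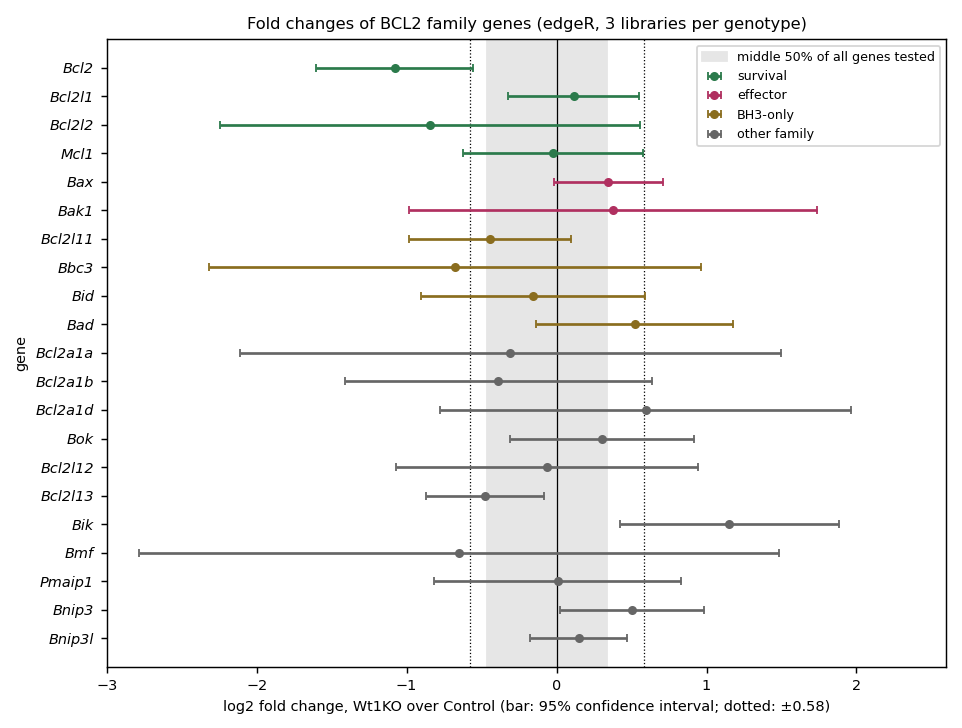
Fitted log2 fold change, Wt1KOΔEC over ControlΔEC (horizontal axis), for the 10 members and the 11 other family genes tested (vertical axis), with bars for the 95% confidence interval from edgeR, a grey band for the middle 50% of all genes tested (-0.46 to 0.33) and dotted lines at ±0.58. The intervals of *Bcl2* and *Bcl2l13* lie below 0, those of *Bik* and *Bnip3* above 0, and all others include 0.

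Levels of different genes were then compared as CPM per kb of exonic length, which puts genes of unequal length on a common scale. In ControlΔEC the order was *Mcl1* (41.9 ± 15.7), *Bax* (28.9 ± 2.93), *Bcl2l11* (12.1 ± 3.80), *Bcl2l1* (10.6 ± 2.41), *Bcl2* (4.04 ± 0.797), *Bad* (3.95 ± 1.05), *Bbc3* (1.51 ± 1.28), *Bak1* (1.31 ± 0.579), *Bid* (1.03 ± 0.208) and *Bcl2l2* (0.636 ± 0.0954; mean ± SD of CPM per kb, n = 3). *Mcl1* and *Bax* overlapped between libraries, as did *Bcl2l11* and *Bcl2l1*, *Bcl2* and *Bad*, *Bad* and *Bbc3*, and *Bbc3*, *Bak1* and *Bid*, so their order is not fixed. *Bbc3*, at 0.239 in ControlΔEC replicate 3, also reached below *Bcl2l2* (0.527 to 0.699). *Bax* and *Bcl2l11* did not overlap, nor did *Bcl2l1* and *Bcl2*, nor *Bid* and *Bcl2l2*. Among the survival genes, *Mcl1* and *Bcl2l1* were thus above *Bcl2*, and *Bcl2l2* was the lowest. With the length of the longest transcript in place of the exonic length, the mean of *Bax* was 48.7 CPM per kb, above that of *Mcl1*. By library, *Bax* was then at 52.1, 50.9 and 43.0 and *Mcl1* at 56.1, 25.1 and 44.6. *Bax* was thus above *Mcl1* only in ControlΔEC replicate 2, and their order is not fixed with this length either.

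In Wt1KOΔEC the order was *Mcl1* (41.3 ± 4.26 CPM per kb), *Bax* (36.7 ± 2.24), *Bcl2l1* (11.48 ± 0.274), *Bcl2l11* (8.86 ± 1.12), *Bad* (5.66 ± 1.39), *Bcl2* (1.91 ± 0.247), *Bak1* (1.70 ± 0.616), *Bbc3* (0.943 ± 0.114), *Bid* (0.918 ± 0.182) and *Bcl2l2* (0.354 ± 0.0354). *Bcl2*, which had overlapped with *Bad* in ControlΔEC, overlapped here with *Bak1*. *Mcl1* and *Bax* overlapped here too, as did *Bak1* with *Bbc3* and *Bid*, and *Bbc3* with *Bid*. *Bcl2l1*, which had overlapped with *Bcl2l11*, was above it in every Wt1KOΔEC library per kb of exonic length. This order depended on the length: per kb of the longest transcript *Bcl2l11* was at 15.03, 18.3 and 19.2 and *Bcl2l1* at 17.1, 16.9 and 16.3 in Wt1KOΔEC, with overlap, and *Bax*, at 58.2 to 65.8, was above *Mcl1* in every library.

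Summed over the 4 survival genes, the level was 70.4, 44.0 and 57.3 CPM per kb in ControlΔEC and 53.6, 51.7 and 59.7 in Wt1KOΔEC, with complete overlap. The 2 effectors summed to 32.0, 31.1 and 27.5 CPM per kb in ControlΔEC and to 40.9, 35.5 and 38.7 in Wt1KOΔEC, with no overlap, most of it from *Bax*. The 4 BH3-only genes summed to 19.7, 16.3 and 19.6 CPM per kb in ControlΔEC and to 16.8, 16.0 and 16.3 in Wt1KOΔEC. As shares of the whole, the survival genes made up 57.7, 48.1 and 54.9% in ControlΔEC and 48.2, 50.1 and 52.1% in Wt1KOΔEC. ControlΔEC replicate 2, in which *Mcl1* was lowest, lay below the Wt1KOΔEC libraries, and the other ControlΔEC libraries above them, so the share did not separate the genotypes. *Mcl1* alone made up 27.5 to 46.0% of the family in ControlΔEC and 35.6 to 40.2% in Wt1KOΔEC.

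The contribution of *Bcl2* to the family was 3.35, 5.27 and 3.09% in ControlΔEC and 1.70, 1.62 and 1.89% in Wt1KOΔEC. Its ratio to *Bax*, per kb, was 0.132, 0.160 and 0.126 in ControlΔEC and 0.0485, 0.0486 and 0.0595 in Wt1KOΔEC. The lowest ControlΔEC ratio was above the highest Wt1KOΔEC ratio, and the means were 0.140 ± 0.0177 and 0.0522 ± 0.00629 (SD, n = 3). Against *Bcl2l1*, the ratio of *Bcl2* was 0.433, 0.360 and 0.359 in ControlΔEC and 0.162, 0.145 and 0.194 in Wt1KOΔEC. Both ratios were chosen after the levels were seen and are descriptions, without a test. They follow from the separate values of *Bcl2*, *Bax* and *Bcl2l1* and add no independent evidence.

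**Figure D3:**
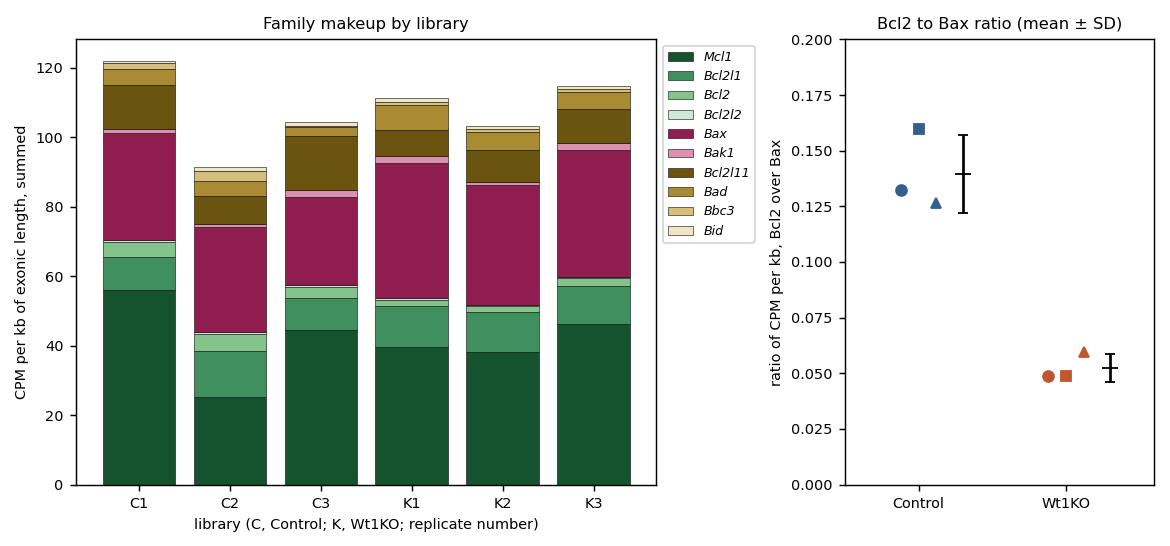
Left, summed CPM per kb of exonic length of the 10 members in each library (C, ControlΔEC; K, Wt1KOΔEC; replicate number), stacked by gene with survival genes in green, effectors in red and BH3-only genes in brown. Right, ratio of *Bcl2* to *Bax* in CPM per kb (points as replicates, bars as mean ± SD, n = 3), 0.126 to 0.160 in ControlΔEC and 0.0485 to 0.0595 in Wt1KOΔEC. *Mcl1* and *Bax* make up most of each column.

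Transcripts listed here as markers of other cell types were present in both groups and some moved with genotype. Their part in the values of the members was not tested. The study places *Rgs5* and *Kcnj8* among arterial and *Col1a1* and *Col3a1* among venous EC markers, and it also lists *Col1a1* among fibroblast genes. In these bulk samples, ECs and other cells cannot be told apart as the source of such transcripts. All 7 macrophage markers were lower in Wt1KOΔEC, 5 of them at an unadjusted p under 0.05, and their sum was 253 to 781 CPM in ControlΔEC and 188 to 270.5 CPM in Wt1KOΔEC. Their highest sum was in ControlΔEC replicate 2, which among the ControlΔEC libraries was also highest in *Bcl2*, *Bcl2l1* and *Bbc3* and lowest in *Mcl1*, *Bak1* and *Bcl2l11*. The same library had the highest ControlΔEC sums of erythroid (11163 CPM) and cardiomyocyte markers (262 CPM). It had the lowest ControlΔEC sums of mural (176 CPM), fibroblast (585 CPM), epicardial (37.1 CPM) and endothelial markers (5691 CPM). Without that library the log2 fold change of *Bcl2* was -0.93 (adjusted p = 0.187, edgeR's quasi-likelihood test). *Csf1r*, the receptor of macrophage growth, was at 153, 327 and 103 CPM in ControlΔEC and 72.5, 92.1 and 57.1 CPM in Wt1KOΔEC, and *C1qb*, a complement gene of macrophages, gave a log2 fold change of -0.48. DESeq2 called 2 macrophage markers as lower (*Csf1r* and *Adgre1*).

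Of the 6 mural cell markers tested, 5 were lower, with sums of 176 to 365 and 141 to 160 CPM; *Myh11*, which defines mature smooth muscle, had 0 counts in 4 of 6 libraries. *Rgs5*, a pericyte marker, was at 165, 26.8 and 164 CPM in ControlΔEC and 25.4, 17.9 and 19.4 CPM in Wt1KOΔEC, and *Kcnj8* gave -0.35 on the log2 scale. DESeq2 called 3 mural markers as lower (*Rgs5*, *Pdgfrb* and *Cspg4*). Of the 7 fibroblast markers, 6 were higher and 1, *Col1a1*, was a DEG by edgeR's test, with sums of 585 to 869 and 1158 to 1368 CPM. DESeq2 called 3 of them as higher (*Col1a1*, *Col3a1* and *Dcn*), and 4 were higher without overlap. *Tcf21* had 0 counts in ControlΔEC replicate 2, and the most abundant fibroblast markers *Col3a1* and *Postn* gave 0.97 and -0.16. The 7 epicardial markers summed to 37.1 to 49.0 and 65.5 to 75.0 CPM, with 5 of 7 higher, *Msln* at 0 counts in ControlΔEC replicate 2, and its most abundant genes *Clu* at 0.25 and *Aldh1a2* at -0.05 in log2 fold change. The epicardial markers of lower level differed more, with *Msln* at 0 to 1.32 CPM in ControlΔEC and 2.75 to 18.9 CPM in Wt1KOΔEC (log2 fold change 4.07), *Upk3b* at 1.08 to 3.71 and 5.28 to 11.98 CPM (2.15) and *Upk1b* at 0.728 to 1.91 and 2.45 to 4.99 CPM (1.26). All 3 were without overlap, and DESeq2 called *Msln* and *Upk3b*, while edgeR's quasi-likelihood test gave adjusted p of 0.221 to 0.523. Cardiomyocyte markers summed to 191 to 262 and 152.5 to 342 CPM, with 6 of the 7 tested higher, *Nkx2-5* at 0 counts in 4 of 6 libraries, and *Actc1* and *Myh7* at 0.51 and 0.21. Erythroid markers summed to 5191 to 11163 and 3667 to 6222 CPM, with 4 of 8 higher, and *Hba-a1* and *Hbb-bs* gave -0.54 and -0.53. The embryonic globins went the other way, with *Hbb-y* at 7.39 to 43.5 CPM in ControlΔEC and 102 to 184 CPM in Wt1KOΔEC (log2 fold change 2.57) and *Hba-x* at 2.601 to 18.8 and 30.3 to 70.6 CPM (2.11), both without overlap and called by DESeq2, at adjusted p of 0.128 and 0.220 in edgeR's quasi-likelihood test. DESeq2 also called *Alas2*, an enzyme of haem synthesis, which was lower (-1.15).

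A list of 12 genes that respond to tissue dissociation was higher throughout in Wt1KOΔEC (12 of 12, 7 at an unadjusted p under 0.05), with sums of 2233 to 2812 CPM in ControlΔEC and 3315 to 4330 CPM in Wt1KOΔEC, and *Hspa1a* and *Dusp1* at 0.81 and 0.25 in log2 fold change. *Hspa1a* and *Hba-a1* have near-identical copies, so their own counts are uncertain. The part of the dissociation list in the levels of *Bax*, *Bad* and other genes of the family was not tested.

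Of 15 further family genes, 11 passed the filter and 0 were DEGs by edgeR's test, while 3 were under an unadjusted p of 0.05 and DESeq2 called 1. *Bcl2l10*, *Bcl2l14*, *Bcl2l15* and *Hrk* did not pass, with at most 0.514 CPM in any library. The largest fold among those tested belonged to *Bik*, a BH3-only gene whose product resides largely at the endoplasmic reticulum. *Bik* was at 4.98, 4.81 and 6.35 CPM in ControlΔEC and at 12.8, 11.54 and 11.48 CPM in Wt1KOΔEC, so that each Wt1KOΔEC library held more than each ControlΔEC library. From these values the log2 fold change was 1.15 (SE 0.32, 95% confidence interval 0.42 to 1.88), with an unadjusted p of 0.00601 and an adjusted p of 0.220 by edgeR's quasi-likelihood test. DESeq2 called it (adjusted p = 0.0055), and over the 17 alternatives the adjusted p ran from 0.0055 to 0.539.

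*Bcl2l13*, a family gene with a role in mitochondrial turnover, was at 80.2, 59.4 and 66.7 CPM in ControlΔEC and 48.5, 53.02 and 46.5 CPM in Wt1KOΔEC. Its libraries did not overlap, at a log2 fold change of -0.48 (SE 0.17; adjusted p = 0.297, edgeR's quasi-likelihood test; unadjusted p = 0.0227). *Bnip3*, a hypoxia-responsive gene of mitophagy, was at 34.1, 44.4 and 39.2 against 65.7, 42.7 and 58.4 CPM, with overlap through Wt1KOΔEC replicate 2 and a log2 fold change of 0.50 (SE 0.21; adjusted p = 0.362; unadjusted p = 0.0418, edgeR's quasi-likelihood test). Its paralogue *Bnip3l* was at 108 to 115 and 117 to 136 CPM without overlap, a log2 fold change of 0.15 that scaling by library size only took to -0.0038.

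The log2 fold changes of the rest were 0.30 for the effector-like *Bok*, -0.65 for the BH3-only *Bmf*, 0.01 for the BH3-only p53 target *Pmaip1*, and -0.06 for *Bcl2l12*, with adjusted p from 0.729 to 0.997 (edgeR's quasi-likelihood test). The survival genes *Bcl2a1a* (-0.31), *Bcl2a1b* (-0.39) and *Bcl2a1d* (0.60) are near-identical copies, so the division of reads among them is uncertain. The median over the 11 genes was 0.01.

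Further genes of the death pathway were counted in lists by position. Downstream of the pore, 0 of 17 apoptosome and caspase genes were DEGs by edgeR's test, and the median log2 fold change was 0.001. The transcripts that carry out the step after the pore were close in mean CPM between ControlΔEC and Wt1KOΔEC: *Apaf1*, the scaffold of the apoptosome, was at 65.5 and 63.3 CPM, and *Casp9*, the caspase it activates, at 15.7 and 15.7 CPM. One gene of this list was under an unadjusted p of 0.05, *Casp8*, the initiator caspase of death receptors that cleaves BID. It was at 87.0, 90.5 and 79.6 CPM in ControlΔEC and 60.6, 49.9 and 57.3 CPM in Wt1KOΔEC, without overlap. Its log2 fold change was -0.62 (SE 0.16), with an unadjusted p of 0.0033 and an adjusted p of 0.198 (edgeR's quasi-likelihood test); DESeq2 called it at an adjusted p of 0.0064, in a range of 0.0064 to 0.500 over 17 alternatives. *Birc2*, a ubiquitin ligase of death receptor complexes, gave -0.54 (adjusted p = 0.543, edgeR's quasi-likelihood test).

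Besides *Casp8*, the list of 8 death receptor genes had none under an unadjusted p of 0.05 in edgeR's quasi-likelihood test, with a median of 0.07. *Ripk1*, a kinase of the receptor complexes, gave -0.50 (adjusted p = 0.436), and *Cflar*, the inhibitor of caspase-8, -0.20 (adjusted p = 0.757, edgeR's quasi-likelihood test). Among 12 genes whose products dock or bind BCL2 proteins the median was 0.01 and 1 was under an unadjusted p of 0.05. This was *Bag1*, a co-chaperone that binds BCL2, at 89.6, 87.1 and 18.3 CPM in ControlΔEC and 29.0, 31.9 and 25.8 CPM in Wt1KOΔEC. ControlΔEC replicate 3 was below every Wt1KOΔEC library and the other ControlΔEC libraries were far above. The fitted change was -1.17 on the log2 scale (SE 0.48; adjusted p = 0.351, edgeR's quasi-likelihood test), and without that replicate it was -1.61, at an adjusted p of 0.0286. *Huwe1*, a ubiquitin ligase of MCL1, gave -0.35 (adjusted p = 0.387), and *Ywhae*, a phosphoserine-binding protein of the kind that holds BAD, gave 0.35 (adjusted p = 0.608, edgeR's quasi-likelihood test).

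The list of p53 targets had a median of 0.09 over 12 genes, and 1 was under an unadjusted p of 0.05. *Sesn2*, a stress-inducible regulator of growth signalling, was at 29.3, 18.2 and 30.6 CPM in ControlΔEC and 53.8, 37.9 and 42.0 CPM in Wt1KOΔEC (log2 fold change 0.78, SE 0.26; adjusted p = 0.263, edgeR's quasi-likelihood test). *Cdkn1a*, the p53 target that halts the cell cycle, was at 208 and 242 CPM on average. The p53 gene *Trp53* was at 349, 291 and 310 CPM in ControlΔEC and 381, 399 and 366 CPM in Wt1KOΔEC, without overlap. Its log2 fold change was 0.27 (SE 0.14, adjusted p = 0.475, edgeR's quasi-likelihood test). *Perp*, at 0.264 to 1.43 and 1.84 to 3.68 CPM, gave 1.49 (adjusted p = 0.550) and *Aen* gave 0.43 (adjusted p = 0.627, edgeR's quasi-likelihood test).

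Of 18 upstream regulators, 2 were under an unadjusted p of 0.05, both lower, with a median of -0.08. *Foxo1*, a growth-factor-restrained transcription factor that can induce *Bcl2l11* and that is a known regulator of EC growth, was at 69.5, 86.9 and 45.2 CPM in ControlΔEC and 38.0, 37.1 and 33.6 CPM in Wt1KOΔEC, without overlap. Its log2 fold change was -0.89 (SE 0.24; adjusted p = 0.209, edgeR's quasi-likelihood test), and DESeq2 called it at an adjusted p of 0.0230, in a range of 0.0230 to 0.501 over 17 alternatives. *Mapk8*, the gene of a stress kinase that phosphorylates several BCL2 proteins, was at 6.12, 15.0 and 20.3 CPM in ControlΔEC and 4.38, 6.46 and 7.76 CPM in Wt1KOΔEC, with overlap (log2 fold change -1.16, SE 0.47; adjusted p = 0.341, edgeR's quasi-likelihood test). *Nfkb1*, a subunit of the NF-kappaB factor that induces *Bcl2a1* genes, gave -0.44 (adjusted p = 0.382, edgeR's quasi-likelihood test) without overlap. The count of 0 DEGs in these lists thus stood beside 6 genes that had an unadjusted p under 0.05 and a log2 fold change beyond ±0.58, and beside 3 DEGs of DESeq2, which were *Bik*, *Casp8* and *Foxo1*. With each gene counted once, the 6 are 7.79% of the 77 genes tested in these lists, against 10.1% of all genes tested, and the 3 are 3.9%, against 4.83%, so neither share was above the background.

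**Figure D4:**
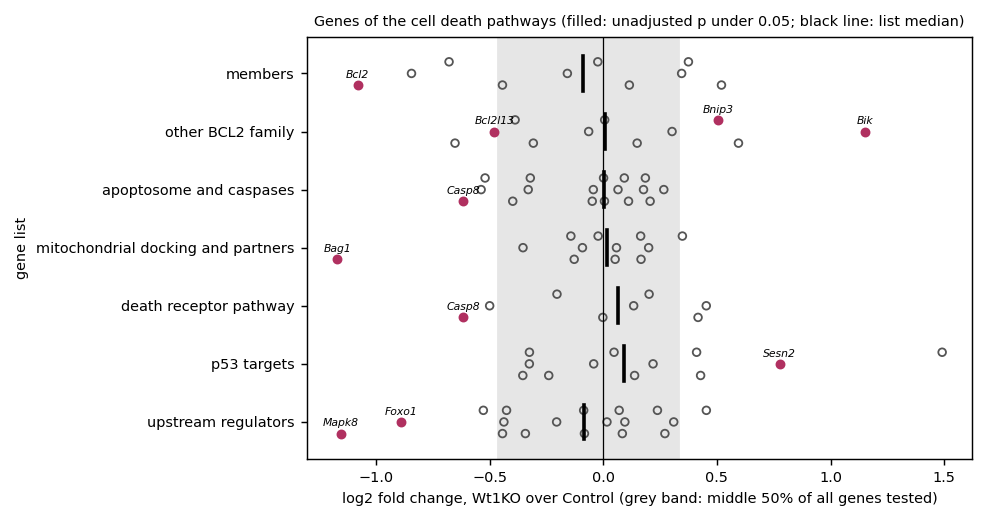
Log2 fold change, Wt1KOΔEC over ControlΔEC (horizontal axis), of each gene tested in the 10 members and 6 lists of family and pathway genes (rows), filled where the unadjusted p from edgeR is under 0.05, with a black line at the median of each list and a grey band for the middle 50% of all genes tested. The medians lie between -0.09 and 0.09, inside the band, and the filled points are single genes in each row apart from the other family genes and the upstream regulators.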

How the data were processed

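RNA-Seq of mGFP+ ECs from 3 ControlΔEC and 3 Wt1KOΔEC samples was analysed. Libraries were of the SMART-seq2 kind, primed with oligo-dT and tagmented with Nextera XT, and do not mark strand. By the study's methods, the authors mapped reads on GRCm39 (STAR) and estimated counts of GENCODE vM27 genes (RSEM); the submitters' processing notes name STAR 2.7.8a, RSEM 1.3.0 and DESeq2 1.18 but the GRCm38 build. What was deposited is a table of RSEM's expected counts, given as integers and corrected neither for depth nor for GC content or gene length. The gene identifiers were found in GENCODE vM39 on GRCm39 for 16238 of the genes tested, which supplied positions and exonic lengths.

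The main test was edgeR 4.0.16 under R 4.3.3 (TMM, quasi-likelihood F test, Benjamini-Hochberg adjustment) over 16296 genes that reached 10 counts in 2 or more libraries, beside limma 3.58.1 and DESeq2 1.42.0. Standard errors are the fold change over the square root of F. The steps were tested on simulated data. The smallest p that an exact permutation test of 3 against 3 libraries can give is 0.1, so none was used for single values. The floor of 3 counts covers counting error only. Libraries of a genotype differed from each other by more than sampling noise. With 3 libraries per genotype and these depths, members of few counts (*Bcl2l2*, *Bak1*) have wide intervals.

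The members and all gene lists were chosen with earlier results of these data known. Genes named are the members, the other family genes, the DEGs and the 3 genes of smallest unadjusted p of each pathway list, the 2 most abundant genes of each marker list, and *Wt1*, except for 1 gene that is not reported here; *Apaf1*, *Casp9*, *Cdkn1a*, *Trp53*, *Msln*, *Upk3b*, *Upk1b*, *Hbb-y*, *Hba-x*, *Alas2*, *Pdgfrb*, *Cspg4*, *Tcf21*, *Myh11*, *Nkx2-5* and the overlapping genes were added after their values were seen, and *Bcl2a1* copies are listed as the files give them. Alternatives were limma-voom, DESeq2, RLE, upper-quartile or library-size scaling, other count filters, no fold change limit, unadjusted p, a replicate block, length and GC offsets, each library left out in turn, and, for levels, the longest transcript.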

Additional observations from a re-analysis of the deposited data

How the results depend on the processing

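Against 12 DEGs in the main fit, there were 767 with DESeq2, 296 with no filter on low counts, 113 with at least 10 counts in every library, 6 with length and GC offsets, 1652 at an unadjusted p and 2 to 37 with 1 library left out (37 without ControlΔEC replicate 3, 26 without ControlΔEC replicate 2, 4 without ControlΔEC replicate 1, 3 without Wt1KOΔEC replicate 1 or 2 and 2 without Wt1KOΔEC replicate 3). The cause was not tested. Members called numbered 0 in the main fit, 1 with DESeq2, with no filter and at an unadjusted p, in each case *Bcl2* (-1.09 with DESeq2; -1.08 with no filter, adjusted p = 0.0303 by edgeR's quasi-likelihood test), and 0 to 0 with 1 library left out. Pathway genes called numbered 3 with DESeq2, 1 with no filter, 6 at an unadjusted p and 0 to 1 with 1 library left out, the 1 being *Bag1* without ControlΔEC replicate 3. Marker genes called, 1 in the main fit, numbered 16 with DESeq2, 13 with no filter, 5 with at least 10 counts in every library, 24 at an unadjusted p, 0 with library size only or length and GC offsets, and 0 to 2 with 1 library left out.

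Same-numbered libraries shared little (correlations of their deviations 0.05, 0.09 and 0.06), although 6 of 6 correlated best with their own number, a hint from the data. The study's methods describe a cross that gives both genotypes within the same litter. Whether the replicate number marks a litter is not given in the sources used here, and the main test did not pair libraries. With the replicate block there were 5 DEGs, and 6 with the block and the offsets together; 0 members and 0 marker genes were called under either. *Mcl1* became 0.048 with the block and 0.022 with both, and *Aldh1a2* 0.19 and 0.12; *Postn* became 0.060 with the offsets and 0.076 with both.

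Other signs that turned were *Bcl2l1* (-0.045), *Pmaip1* (-0.12) and *Bnip3l* (-0.0038) with library size only, *Mcl1* (0.055) and *Aldh1a2* (0.36) with limma-voom, *Mcl1* with upper-quartile scaling (0.000211) and *Pmaip1* with at least 10 counts in every library (-0.0075). With 1 library left out, values ranged from -1.22 to -0.93 for *Bcl2*, 0.010 to 0.32 for *Bcl2l1*, -0.96 to -0.77 for *Bcl2l2*, -0.29 to 0.25 for *Mcl1*, 0.27 to 0.40 for *Bax*, 0.15 to 0.79 for *Bak1*, -0.67 to -0.22 for *Bcl2l11*, -1.18 to 0.12 for *Bbc3*, -0.33 to -0.018 for *Bid* and 0.30 to 0.64 for *Bad*; signs also turned for *Bcl2a1d* (-0.22 to 0.89), *Bcl2l12* (-0.35 to 0.14), *Bmf* (-1.13 to 0.69), *Pmaip1* (-0.28 to 0.28), *Pecam1* (-0.16 to 0.047), *Myh7* (-0.066 to 0.55), *Clu* (-0.030 to 0.54), *Aldh1a2* (-0.50 to 0.80), *Postn* (-0.40 to 0.0074) and *C1qb* (-0.81 to 0.067). With the longest transcript as length, ControlΔEC levels were 5.14 (*Bcl2*), 15.499 (*Bcl2l1*), 0.777 (*Bcl2l2*), 48.7 (*Bax*), 23.8 (*Bcl2l11*), 2.20 (*Bid*) and 7.96 (*Bad*) CPM per kb, and the share of the survival genes was 42.0% in ControlΔEC and 38.8% in Wt1KOΔEC.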
